A study of Physcomitrium patens with 5 samples.

Results

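Of the 31775 loci in an RPKM table of the moss Physcomitrium patens, 1389 (4.37%) had a maxMultiRatio of at least 0.5. RPKM stands for reads per kilobase of locus, scaled to the size of the library. The maxMultiRatio is a fraction that the authors deposited for each locus without a definition. It is read here as the largest share of a locus's reads that also mapped elsewhere, because reads recovered from the RPKM were whole numbers at every locus with a fraction of 0 and were divided into fractions of a read only above it. These 1389 loci are called the members. The fraction was 1 for 619 of them and at least 0.9 for 900, with a median of 0.992.

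The RNA came from protonemata, the filamentous stage of the moss, of an inducible PpARFC2 overexpressor. PpARFC2 is an auxin response factor, a transcription factor of class C of that family. Protonemata aged 7 days were kept for 16 hours on 1 µM β-estradiol (3 libraries) or on 0.01% DMSO, the solvent (2 libraries). All 5 libraries come from that line, so what PpARFC2 does and what the inducer does by itself cannot be told apart. The labels do not say that replicates came from separate cultures, so the p-values cover only library-to-library spread, which may be technical in origin. In mega-reads (M), the loci received 27.3, 18.7 and 17.6 M in β-estradiol and 27.7 and 18.1 M in DMSO. β-estradiol 1 and DMSO 1 form a deeper class (totals of 56.0 and 56.3 M reads), and the other 3 libraries a shallower one (37.3 to 39.4 M).

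Genes that arose by duplication can stay close to identical in sequence, and tandem duplication leaves the copies side by side on a chromosome. A short read from such a stretch matches each copy equally well, so a counting program must drop it, count it at every copy or divide it among them. The level of 1 copy then depends on that division, whereas the sum over all copies that share the reads does not. The locus IDs carry a prefix, with Pp3c and a number for a chromosome and Pp3s and a number for an unplaced scaffold, followed by a locus number that orders loci along it. No ID could be paired with a gene name (0 of 31775 matched the 27567 reference genes used here), so the members are described by prefix and locus number, and what they encode was not analysed here.

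The members took 12.0, 10.7 and 10.6% of all RPKM × length in the β-estradiol libraries and 13.7 and 11.3% in the DMSO libraries. This product is proportional to the reads in a locus. The mean share was 11.1 ± 0.794% with β-estradiol (SD, n = 3) and 12.5 ± 1.71% with DMSO (SD, n = 2), a difference of -1.39 percentage points (exact permutation test, two-sided, p = 0.3, where 2 libraries against 3 allow no p under 0.1). The ranges of the treatments overlap, and within each treatment the deeper library had the highest share. β-estradiol minus DMSO was -1.68 points in the deeper class and -0.634 points in the shallower class. Without the 10 members with the most reads the difference was -0.503 points (exact permutation p = 0.4). It was -2.60 points without DMSO 2 and -0.176 points without DMSO 1. In bulk RNA, a lower share from fewer cells of a type and from less RNA per cell cannot be told apart.

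**Figure D1:**
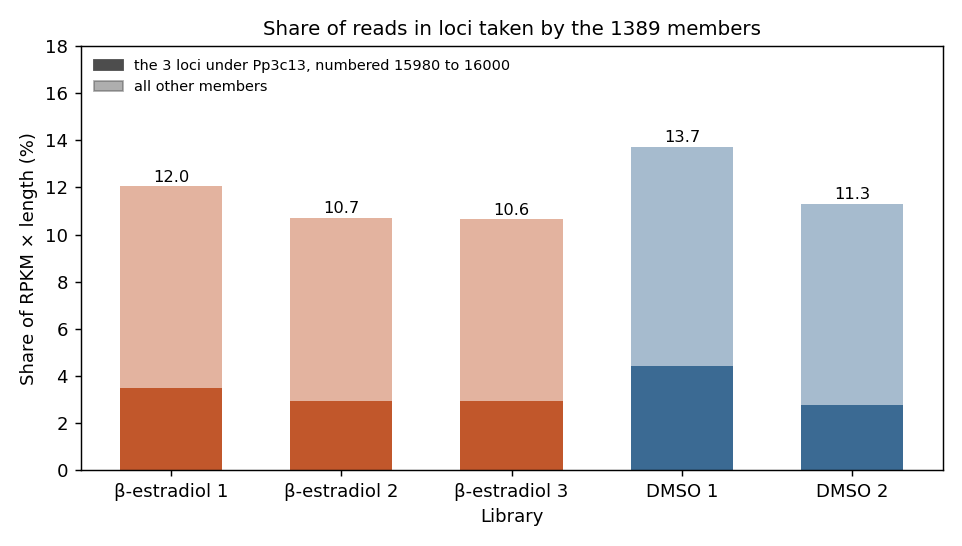
Share of all RPKM × length (%, vertical axis) taken by the members in each library (horizontal axis), 3 β-estradiol libraries on the left and 2 DMSO libraries on the right. The dark part of each bar is the 3 loci under Pp3c13 numbered 15980 to 16000 and the pale part all other members, and the bars reach 12.0, 10.7 and 10.6% with β-estradiol and 13.7 and 11.3% with DMSO.

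Most members were weakly expressed, and a few were among the most abundant transcripts. The median over members of the mean level in the 5 libraries was 0.861 RPKM, close to the 0.834 RPKM of the 28723 loci with a maxMultiRatio of 0. Every member had a fraction of a read or more in some library, as a ratio above 0 requires. Fewer than 10 reads in all libraries together fell on 274 members (19.7%), and fewer than 100 on 526 (37.9%). A mean of at least 0.5 RPKM was asked of a locus for testing, and 776 members (55.9%) passed it, against 53.6% of loci with a ratio of 0. Among those that passed, the 90% quantile was 53.1 RPKM for members and 18.6 RPKM for loci with a ratio of 0. Members made up 85 (11.9%) of the 714 loci at 50 RPKM or more and 29 (20.7%) of the 140 loci at 200 RPKM or more. Their lengths were ordinary, with a median of 1.869 kb against 1.924 kb at a ratio of 0, and 9.72% were shorter than 0.5 kb against 15.8%.

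The threshold cuts through a continuous range of the ratio. The lowest member stood at 0.5 and the highest locus outside at 0.499. The 76 members from 0.5 to under 0.55 had a median level of 0.913 RPKM and a median length of 2.336 kb, and the 65 loci from 0.45 to under 0.5 had 2.52 RPKM and 2.325 kb.

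Members occurred under every chromosome prefix, in unequal shares. The 27 Pp3c prefixes held 1316 members, between 2.05% of the loci listed under Pp3c10 and 10% of those under Pp3c26, with a median of 3.90%. Pp3c20 followed Pp3c26 with 6.82%. The Pp3s scaffolds held 73 members among 674 loci (10.8%).

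Members also lay next to each other. Ordered by locus number, 859 members (61.8%) stood in 319 groups of adjacent members with no other listed locus between them, and 530 stood alone. There were 215 groups of 2, 59 of 3, 22 of 4 and 23 of 5 or more, the 3 longest with 10, 15 and 16 members. The groups held 66.9 to 74.2% of the reads of all members, depending on the library.

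**Figure D2:**
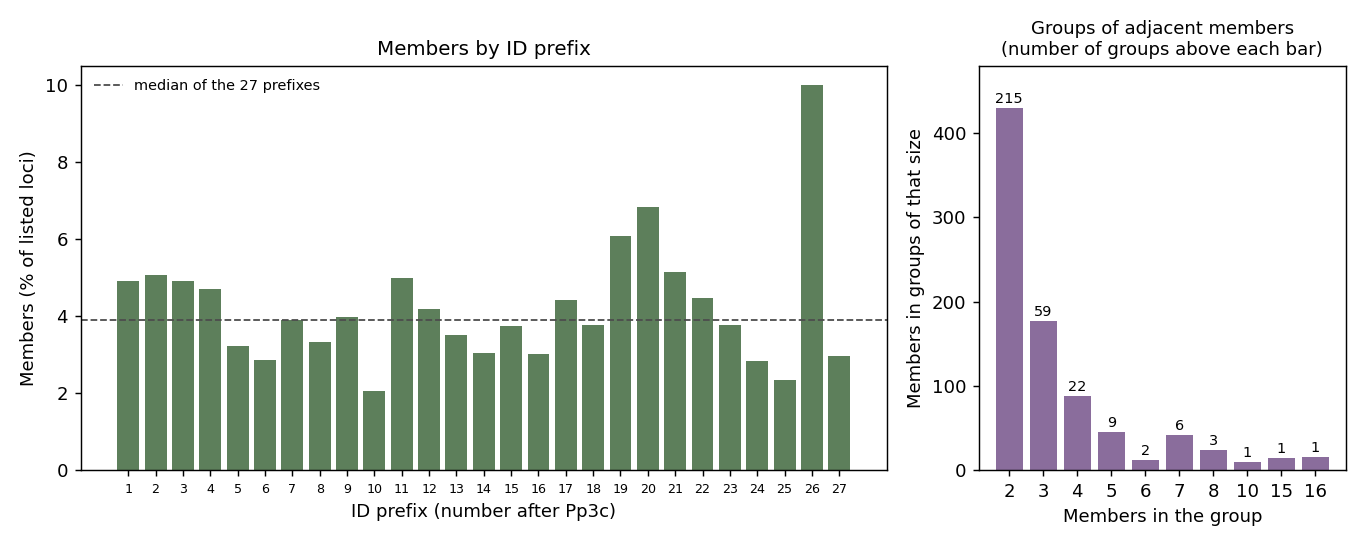
Left, members as a percentage of the loci listed under each of the 27 Pp3c prefixes (horizontal axis), with the median as a dashed line, from 2.05% under Pp3c10 to 10% under Pp3c26. Right, number of members (vertical axis) in groups of adjacent members by the size of the group (horizontal axis), with the number of groups above each bar, from 215 groups of 2 to 1 group of 16.

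One group outweighed all others. The 3 loci under Pp3c13 numbered 15980 to 16000 (10.9 kb together) held 28.9, 27.3 and 27.8% of the reads of all members in the β-estradiol libraries and 32.1 and 24.6% in the DMSO libraries. Their summed level per length was 1555, 1272 and 1277 RPKM with β-estradiol and 1986 and 1218 RPKM with DMSO. The DMSO libraries enclose the β-estradiol libraries, and the sum did not pass the test (log2 change -0.19, SE 0.25, limma adjusted p = 0.690). The short locus 15980 (1.038 kb) followed the depth classes, with 5051, 2039 and 1861 RPKM in β-estradiol and 6287 and 1924 RPKM in DMSO. It took 30.9 and 30.1% of the group's reads in the deeper libraries β-estradiol 1 and DMSO 1, against 13.9 to 15.3% in the shallower ones. The long locus 15990 (7.376 kb) stayed between 1400 and 1822 RPKM in all 5 libraries.

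The next 4 groups by reads each held 2.06 to 3.08% of the members' reads, summed over the 5 libraries, and none of their sums passed the test. The pair under Pp3c10 numbered 25360 and 25410 stood at 472, 355 and 370 RPKM with β-estradiol and at 481 and 265 RPKM with DMSO (log2 change 0.15, SE 0.29, limma adjusted p = 0.796). The other 3, under Pp3c13 (15786 to 15800), Pp3c20 (23240 to 23270) and Pp3c2 (36170 to 36570), had log2 changes of -0.23, 0.39 and 0.20. In all 4 groups β-estradiol 1 was higher than β-estradiol 2 and 3, and DMSO 1 higher than DMSO 2. Without DMSO 1 the Pp3c20 group passed, with a log2 change of 0.74 (limma adjusted p = 0.0319).

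Levels differed between the depth classes more often at members than at loci with a ratio of 0. In both treatments, 52 of the 776 tested members (6.70%) were 2-fold or more higher in the deeper library than in the shallower ones, and 16 (2.06%) were 2-fold or more lower. Among tested loci with a ratio of 0, the shares were 1.25 and 0.266%. What part the depth class had in the comparisons of treatments was not tested beyond the values given by class.

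The fractions of reads show which loci shared them. A pair of loci whose fractional reads add to a whole number in all 5 libraries, within 0.001 of a read, was taken as a read-sharing pair. At least 3 libraries had to hold a fraction other than 0 or 0.5. Searching all 1657 candidate loci of the table gave 568 pairs, with no locus in more than 1 of them. Of these, 227 held at least 1 member, and 196 joined 2 members. The remaining multiply mapped loci were searched in runs of up to 20 under 1 prefix, spanning at most 1000 locus numbers, which gave 63 clusters with a member. A cluster's sum keeps all divided reads inside, but does not show that each of its loci shared reads with every other. Pairs and clusters, here called sets, held 652 members (46.9%) and 56.2 to 63.3% of the members' reads. This search was added after the fractional reads had been seen.

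Most pairs lay under 1 prefix, and most joined loci that were not direct neighbours. Of the 227 pairs, 221 (97.4%) lay under 1 prefix, at a median distance of 40 locus numbers and at most 5190. Only 90 (39.6%) stood next to each other in the listing, so summing adjacent members left many sharing pairs apart. The 2 copies of a pair often differed in length, by a median factor of 1.19, and 77 pairs were within 1.1 times of each other. As an example, the most abundant members cross the borders of their groups. Locus 15790 of 1 Pp3c13 group and locus 15990 of the other added to whole reads, and 15790 took 6.37 to 8.05% of the pair's reads in every library. Of the 259 groups of adjacent members with fractional reads in at least 3 libraries, 101 closed to whole sums in all 5. The 737 members in no set included 218 with fewer than 10 reads in all and 216 with whole reads in every library, and with which loci the others shared reads was not measured.

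How a pair's reads were divided differed between libraries. For the 180 pairs of members with at least 100 reads in every library, the share of the locus listed first ranged over the 5 libraries by a median of 12.1 percentage points. The range grew with the ratio. Its median was 9.64 points for the 102 pairs whose lower ratio was 0.5 to under 0.9, 16.0 points for 52 pairs from 0.9 to under 0.99 and 34.4 points for 26 pairs from 0.99. It reached 25 points or more in 37 pairs and 50 points or more in 8. Within the 3 β-estradiol libraries the median range was 7.75 points, and 5.71, 9.95 and 21.7 points by rising ratio. A range over fewer libraries cannot be larger. The range over all 5 also spans the treatments, as at loci 6850 and 6890 under Pp3c7 (57.7 points, and 4.22 within β-estradiol). What part treatment, sampling of reads and their assignment had in the ranges was not tested.

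**Figure D3:**
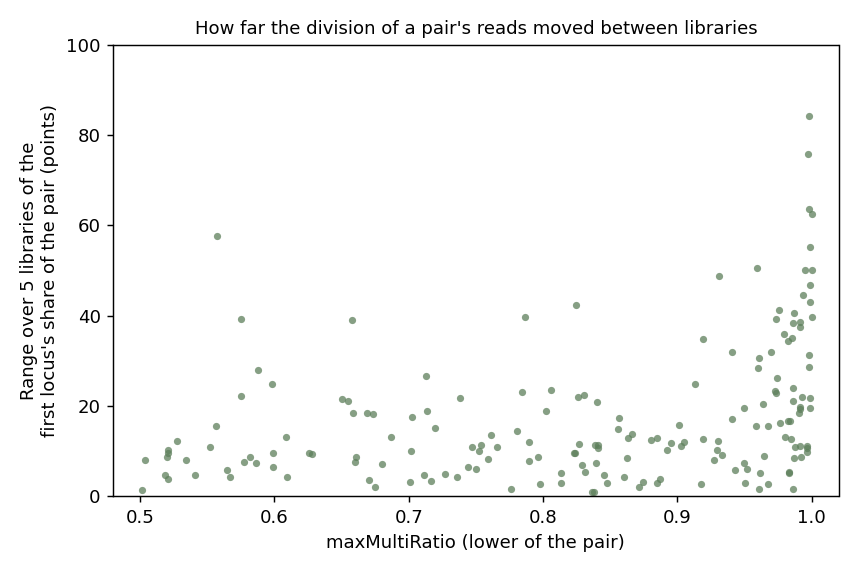
Each point is 1 of 180 read-sharing pairs of members. The horizontal axis gives the lower maxMultiRatio of the pair, and the vertical axis the range over the 5 libraries of the share of the pair's reads at the locus listed first (percentage points). Medians are 9.64 points for ratios of 0.5 to under 0.9 and 34.4 points from 0.99, and the highest point is at 84.1.

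Among these 180 pairs the division ranged most under Pp3c9, at loci 10370 and 10380. Locus 10370 took 65.4, 38.6 and 100% of the pair's reads in the β-estradiol libraries and 48.5 and 15.9% in the DMSO libraries. The pair together had 1631, 843 and 738 reads with β-estradiol and 1300 and 687 reads with DMSO. Its sum did not pass the test (log2 change 0.15, limma adjusted p = 0.702), while the division differed by up to 84.1 points. The adjacent pair under Pp3c4 numbered 14520 and 14530, which is not among the 180, was divided in an all-or-none manner in 4 libraries. Locus 14520 held all reads of the pair in β-estradiol 1 and 2 and none in β-estradiol 3, against none in DMSO 1 and 46.2% in DMSO 2. Neither locus passed the test alone, with log2 changes of -0.42 and -4.05 (limma adjusted p = 0.912 and 0.0864). Their sum had 405, 313 and 280 reads with β-estradiol and 1489 and 2542 reads with DMSO, and fell by 2.23 on the log2 scale (SE 0.36, limma adjusted p = 0.0319).

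Summing brought replicates closer together. The median SD of log2(RPKM + 0.5) over tested members was 0.26 in β-estradiol and 0.37 in DMSO, against 0.13 and 0.26 for loci with a ratio of 0. For the 489 tested members in adjacent groups it was 0.28 in β-estradiol and 0.41 in DMSO, and for the 225 tested group sums 0.20 and 0.29. For the 549 tested loci in sets it was 0.24 and 0.32, and for the 273 tested set sums 0.18 and 0.22. The set sums were thus above the value at a ratio of 0 in β-estradiol (0.18 against 0.13) and below it in DMSO (0.22 against 0.26).

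The comparison of treatments asks which members changed their level after 16 hours of β-estradiol. Per locus, limma called 42 of the 776 tested members (5.41%) changed at an adjusted p under 0.05, against 4.53% of all 17429 tested loci. Levels rose at 9 members (1.16%, against 1.58% of all tested loci) and fell at 33 (4.25%, against 2.95%). The share of members called is near that of the whole table. Members that share reads are counted singly, so these calls are not independent of each other. Several of the members that fell belong to the same cluster under Pp3c23, described below. The members that rose did so by 0.75 to 2.13 on the log2 scale (median 1.42), and the members that fell had changes of -0.75 to -5.09 (median -1.77). The treatments did not overlap at 279 members (36.0%), against 41.6% of all tested loci. The median log2 change was -0.06 over tested members and -0.02 over all tested loci.

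Which libraries entered the fit decided how many members passed. Without DMSO 1, 158 members (20.8% of those tested) were called, against 21.8% of all tested loci, and without DMSO 2, 52 members (6.72%), against 4.33%. With β-estradiol 1 left out 10 members (1.31%) were called, against 0.771% of all tested loci. With β-estradiol 2 left out 1 (0.127%) was called, against 0.182%, and with β-estradiol 3 left out 2 (0.255%), against 0.183%. None of the 42 calls changed sign in these fits, and 0 passed in all of them. All 42 had 1 sign in both depth classes. The 42 were picked by their difference over these same libraries, so agreement in sign was largely fixed by the choice. Adding the depth class to the limma model gave 222 called members (28.6%), against 23.5% of all tested loci. With voom on the recovered reads 29 members passed, against 3.47% of all tested loci.

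Large fitted changes without a call were frequent among members. A log2 change of at least 1 in either direction was fitted at 139 tested members (17.9%), against 7.56% of all tested loci, and 103 of these did not pass the test. The share was highest at the highest ratio. At a ratio of 1, 35.5% of 166 tested members had such a change and 7.83% were called, 1 higher and 12 lower. Loci that share reads are counted singly here and are not independent. The 12 include loci 1340, 1379, 1430, 1470 and 1480 under Pp3c23, which belong to the same cluster. From 0.9 to under 1 the values were 14.5% and 4.42% of 249 members, and from 0.5 to under 0.9 they were 12.2% and 4.99% of 361 members. At a ratio of 1 the median SD was also the highest, with 0.51 in β-estradiol and 0.71 in DMSO.

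The largest increases among called members without overlap between treatments were those of Pp3c3_4140 and Pp3c21_4900. That their treatments are separate was thus fixed by the choice. Pp3c3_4140 (1.426 kb, ratio 0.674) stood at 34.1, 24.1 and 20.4 RPKM with β-estradiol and at 7.18 and 4.14 RPKM with DMSO. Every β-estradiol library lies above both DMSO libraries, with means of 26.2 ± 7.08 RPKM (SD, n = 3) and 5.66 ± 2.15 RPKM (SD, n = 2). The level rose by 2.13 on the log2 scale (SE 0.31, limma adjusted p = 0.0257). Between libraries of like depth the difference was 2.17 (deeper) and 2.29 (shallower). Pp3c3_4140 belongs to no set, so the loci it shared reads with are not known here. It passed without either DMSO library but not without a β-estradiol library (limma adjusted p = 0.0854 when β-estradiol 1 was left out, 0.129 for β-estradiol 2 and 0.1003 for β-estradiol 3).

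Pp3c21_4900 (2.638 kb, ratio 0.918) had 2.39, 1.63 and 0.933 RPKM with β-estradiol and 0.198 and 0.0465 RPKM with DMSO. The treatments do not overlap, as the choice required, and the level rose by 1.74 on the log2 scale (SE 0.33, limma adjusted p = 0.0480). This locus shares its reads with the locus numbered 4950 under the same prefix. The pair's sum had 1012, 411 and 310 reads with β-estradiol and 192 and 41 reads with DMSO, and just missed the threshold (log2 change 1.68, SE 0.36, limma adjusted p = 0.0596). The call on Pp3c21_4900 was also lost at a pseudocount of 1, with a filter at a mean of 1 RPKM, with no filter and in voom (adjusted p = 0.0507 to 0.0810), and without any library except DMSO 1 (limma adjusted p = 0.0904 to 0.199).

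The largest decreases, picked in the same way among called members without overlap, were those of Pp3c23_1420 and Pp3c23_1470. Pp3c23_1420 (1.194 kb, ratio 0.969) averaged 6.65 ± 3.24 RPKM with β-estradiol (SD, n = 3) and 229 ± 76.8 RPKM with DMSO (SD, n = 2). Its level fell by 5.09 on the log2 scale (SE 0.49, limma adjusted p = 0.0108). Pp3c23_1470 (1.766 kb, ratio 1) had 0.0843, 0.502 and 2.05 RPKM with β-estradiol and 14.3 and 97.7 RPKM with DMSO, and fell by 5.06 (SE 0.94, limma adjusted p = 0.0456). The DMSO libraries differ widely at this locus, and its call was lost without DMSO 2 (limma adjusted p = 0.0746), without any β-estradiol library (0.114 to 0.172), with a pseudocount of 0.1, with no filter and in voom (0.0566 to 0.0913), whereas that of Pp3c23_1420 was lost without β-estradiol 2 (0.0604) and without β-estradiol 3 (0.0621).

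Both loci belong to a cluster of 8 under Pp3c23 numbered 1340 to 1480 (9.71 kb together), the set with the largest change. The 8 loci together held 233, 646 and 597 reads with β-estradiol and 14991 and 23428 reads with DMSO, whole numbers in each library. Their summed level was 0.429, 1.69 and 1.65 RPKM with β-estradiol and 27.4 and 63.6 RPKM with DMSO. The highest β-estradiol library lies far below the lower DMSO library, and the sum fell by 4.69 on the log2 scale (SE 0.51, limma adjusted p = 0.0135). The deeper class had a difference of -4.91 and the shallower class one of -4.89. The call was lost without β-estradiol 2 and without β-estradiol 3 (limma adjusted p = 0.0726 and 0.0737). Of the cluster's 7 tested loci, 6 passed the test alone, all with lower levels in β-estradiol. The other, numbered 1399, also had a log2 change below 0 but did not pass (-0.68, limma adjusted p = 0.682). Its levels overlapped, with 0.187, 1.16 and 0 RPKM with β-estradiol and 0.0483 and 2.71 RPKM with DMSO. Locus 1370 was too low to test. It had 8.33, 34.7 and 0 reads with β-estradiol and 0.667 and 2.33 reads with DMSO, and so did not share the decrease. Locus 1420 held 62.4 to 83.3% of the cluster's reads with β-estradiol and 78.2 and 54.7% with DMSO.

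**Figure D4:**
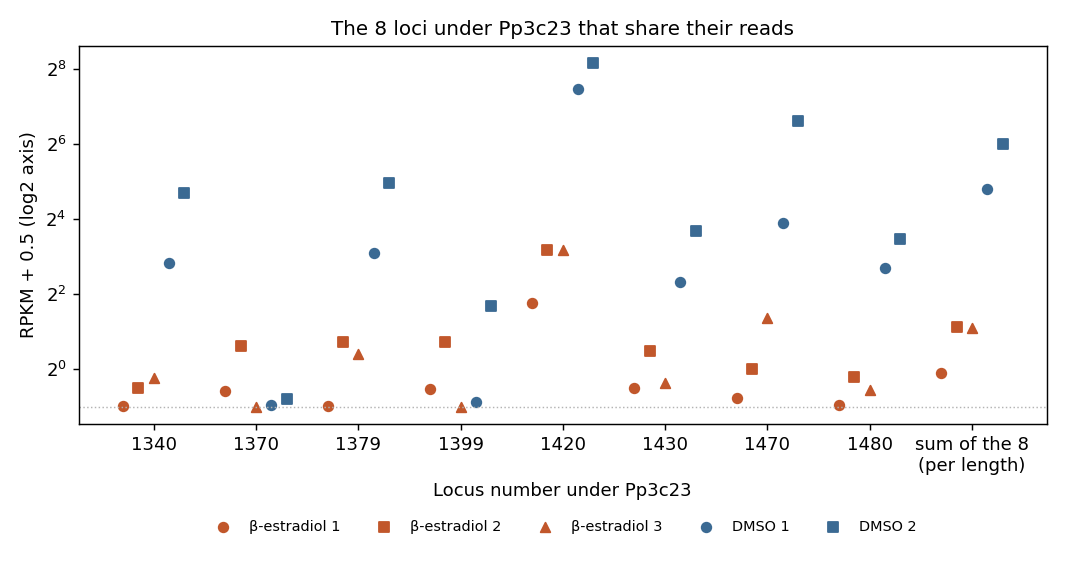
RPKM + 0.5 (vertical axis, log2 scale) of the 8 loci under Pp3c23 numbered 1340 to 1480 and of their sum per length (horizontal axis) in each library, β-estradiol in orange on the left of each position and DMSO in blue on the right. The dotted line marks 0 RPKM, and the sum lies between 0.429 and 1.69 RPKM with β-estradiol and at 27.4 and 63.6 RPKM with DMSO.

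Over groups of adjacent members, 15 of 225 tested sums (6.67%) passed, against 4.83% of all rows of that table. Levels rose in 4 groups (1.78%, against 1.72%) and fell in 11 (4.89%, against 3.11%), and the treatments did not overlap in 85 (37.8%, against 41.8%). Without a filter on low values 5 group sums (1.57%) passed, against 2.16% of all rows. Leaving out DMSO 1 gave 47 called sums (21.1%, against 23.2%), and leaving out DMSO 2 gave 17 (7.76%, against 5.5%). Each of β-estradiol 1 and 2 left out gave 1 call (0.444%, against 0.788 and 0.22%), and β-estradiol 3 left out gave 0 (against 0.174%). In that last fit 37 of 227 tested sums had an unadjusted limma p under 0.05. The share of all rows under that value was not counted, so this number has no background.

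The 4 groups that rose lie under 3 prefixes. The pair under Pp3c8 numbered 8851 and 8860 had 595, 654 and 597 reads with β-estradiol and 158 and 197 reads with DMSO, and rose by 1.69 on the log2 scale (SE 0.29, limma adjusted p = 0.0367). Under Pp3c13, loci 17480 to 17650 rose by 1.24 and loci 17810 to 17830 by 1.03 (limma adjusted p = 0.0377 and 0.0460), and under Pp3c1 loci 29630 and 29650 rose by 1.104 (limma adjusted p = 0.0400). The Pp3c13 groups are not independent of each other. Loci 17630 and 17810, 1 in each group, are both 0.935 kb long and held equal reads in every library, at 320.5, 168.5 and 104 with β-estradiol and 102 and 37.5 with DMSO. In all 4 groups the deeper and the shallower class had a change in the same direction, which their choice by a call over the same libraries largely fixed. None of the 4 passed with any β-estradiol library left out (limma adjusted p = 0.0806 to 0.208) or with no filter on low values (limma adjusted p = 0.0596 to 0.0693). Loci 17810 to 17830 also did not pass at a pseudocount of 1 (limma adjusted p = 0.0515) or in voom (adjusted p = 0.0529).

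Among the 11 groups that fell, the largest changes were in the Pp3c23 cluster, whose groups 1470 to 1480 and 1370 to 1430 fell by 4.77 and 4.67 on the log2 scale (limma adjusted p = 0.0339 and 0.0105). The pair under Pp3c16 numbered 14720 and 14730 stood at 3.93, 3.04 and 1.31 RPKM with β-estradiol and at 43.6 and 26.2 RPKM with DMSO, and fell by 3.49 (SE 0.42, limma adjusted p = 0.0173). Locus 14730 held all of these reads except 0.667 of a read in DMSO 1. The Pp3c4 pair described above followed with -2.23. The 5 loci under Pp3c5 numbered 12750 to 12820 stood at 12.6, 17.0 and 14.9 RPKM with β-estradiol and at 36.8 and 78.1 RPKM with DMSO, and fell by 1.83 (SE 0.33, limma adjusted p = 0.0410). Locus 12820 held 99.6 to 99.9% of their reads. The other 6 groups fell by 0.77 to 1.56. In the Pp3c16 and Pp3c5 groups the sum is thus in effect 1 locus, while the Pp3c4 pair passed only as a sum.

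Summing neighbours moved calls in both directions. No locus was called in 5 of the 15 called groups, and 10 groups that did not pass contain a called locus. Of the 170 groups with at least 2 tested loci, 68 (40.0%) held loci of opposite sign, and the highest and lowest log2 change in a group differed by a median of 0.37 and by at least 1 in 36 groups.

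The 15 loci under Pp3c2 numbered 36170 to 36570 show such a contrast. Their sum stood at 44.1, 36.0 and 36.1 RPKM with β-estradiol and at 44.7 and 25.2 RPKM with DMSO, and did not pass the test (log2 change 0.20, SE 0.26, limma adjusted p = 0.7003). Locus 36350 within it had no read in any β-estradiol library, against 406.6 and 198.9 reads in the DMSO libraries, and passed alone (limma adjusted p = 0.0101). Locus 36170, of ratio 1 as well, had 697, 489 and 600 reads with β-estradiol and 406.2 and 197.7 reads with DMSO, close to those of locus 36350 in DMSO. Its log2 change was 0.93 (limma adjusted p = 0.0539).

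The group with the most members and the one with the fewest reads among the 3 longest gave no call either. The 16 loci under Pp3c20 numbered 25 to 283, all of ratio 1, had summed levels of 11.6, 3.49 and 4.27 RPKM with β-estradiol and 21.9 and 4.76 RPKM with DMSO (log2 change -0.82, SE 0.73, limma adjusted p = 0.547). The deeper library of each treatment was the high one. Its most abundant locus, numbered 129, stood at 119, 61.8 and 78.4 RPKM with β-estradiol and at 505 and 119 RPKM with DMSO. The 10 loci under Pp3c6 numbered 23850 to 24121 together held 2, 4 and 10 reads with β-estradiol and 2 and 0 reads with DMSO, too few to test.

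Over read-sharing sets, 11 of 273 tested sums (4.03%) passed, against 4.76% of all rows of that table. Levels rose in 3 sets (1.099%, against 1.69%) and fell in 8 (2.93%, against 3.07%), and the treatments did not overlap in 109 (39.9%, against 41.7%). The share called is thus near the background also where the shared reads were kept together. With no filter on low values 5 set sums (1.72%) passed, against 2.1% of all rows. With DMSO 1 left out 56 sums (20.7%, against 22.9%) were called, and with β-estradiol 1 left out 1 (0.370%, against 0.754%). With β-estradiol 2 or 3 left out limma called 0 (against 0.197 and 0.186% of all rows). In these fits 38 of 273 and 39 of 274 tested sums had an unadjusted limma p under 0.05, again without a count over all rows. Log2 changes of at least 1 in size were fitted at 22 sets (8.06%). The 17.9% given above covers all 776 tested members, also those in no set. The 2 shares cover different loci and do not show what summing did.

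Besides the Pp3c23 cluster, the sets that fell were 6 pairs and a cluster of 3. The pair under Pp3c4 numbered 12970 and 13010 had 138, 106 and 67 reads with β-estradiol and 1153 and 999 reads with DMSO, and fell by 1.89 on the log2 scale (SE 0.19, limma adjusted p = 0.0108). In that pair both loci also passed alone. A pair across prefixes, Pp3c9 numbered 21600 and Pp3s50 numbered 100, had 1665, 1445 and 1760 reads with β-estradiol and 6764 and 4818 reads with DMSO. It fell by 1.71 (SE 0.21, limma adjusted p = 0.0188), although neither locus passed alone (limma adjusted p = 0.253 and 0.0582). Its division moved between 23.6, 30.5 and 57.1% for the Pp3c9 locus with β-estradiol and 59.9 and 16.9% with DMSO. The pair with the most reads among those that fell, Pp3c15 numbered 12990 and 13020, stood at 37.6, 40.6 and 39.0 RPKM with β-estradiol and at 67.5 and 83.7 RPKM with DMSO (log2 change -0.94, SE 0.15, limma adjusted p = 0.0326).

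The sets that rose were the Pp3c1 pair named above, the pair under Pp3c13 numbered 17480 and 17510 and a cluster of 8 under Pp3c8 numbered 8489 to 9383. The Pp3c13 pair had 1030, 934 and 540 reads with β-estradiol and 362 and 188 reads with DMSO, and rose by 1.41 on the log2 scale (SE 0.22, limma adjusted p = 0.0311), with no locus called alone. The Pp3c8 cluster stood at 3.96, 4.17 and 3.91 RPKM with β-estradiol and at 1.37 and 1.995 RPKM with DMSO, and rose by 1.06 (SE 0.17, limma adjusted p = 0.0304). Some of its loci had log2 changes below 0 that did not pass, such as -0.61 at locus 8489, whose 3.53, 0.168 and 0.0788 RPKM with β-estradiol enclose the 1.08 and 1.47 RPKM with DMSO.

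The sums differed from the single members in which of them passed. Of the 42 called members, 24 belonged to a tested set. For 15 of these the sum was called in the same direction, and for 9 it was not. The 9 had a median change of 1.62 in size, where the sums of their sets had 0.76 in the same direction, and none of the 9 sums had the opposite sign. The 9 were picked by a called member and a sum that was not called, and each sum contains its member. Their sizes and signs therefore do not show how members relate to sums in general. The remaining 18 called members belong to no set, so no set sum could be tested for them. Some lie in groups of adjacent members whose sums were tested, as given above for Pp3c16_14730, Pp3c5_12820 and Pp3c2_36350. Such a group need not hold every locus that shared their reads. A further 18 tested members belonged to a called set without passing alone.

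A member under Pp3c22 moved more than its set. Locus 6530 had 1409, 833 and 822 reads with β-estradiol and 473 and 351 reads with DMSO, and rose by 1.23 on the log2 scale (limma adjusted p = 0.0162). The sum with its partner, locus 6760, was 2124, 1490 and 1361 reads with β-estradiol and 1232 and 1292 reads with DMSO, and did not pass (log2 change 0.41, limma adjusted p = 0.277). Locus 6530 took 66.3, 55.9 and 60.4% of these reads with β-estradiol and 38.4 and 27.2% with DMSO. In the other direction, locus 6850 under Pp3c7 fell by 1.91 (limma adjusted p = 0.00906), while the sum with locus 6890 had a log2 change of -0.57 (limma adjusted p = 0.270). Both loci have a ratio near the minimum, at 0.575 and 0.558. Both were chosen after their values were seen.

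**Figure D5:**
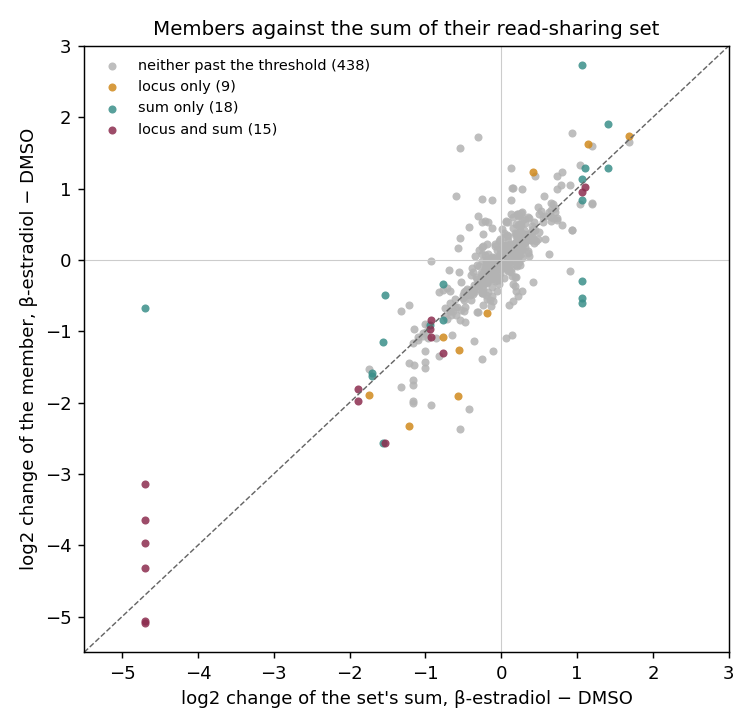
Log2 change (β-estradiol minus DMSO) of 480 tested members (vertical axis) against that of the sum of their read-sharing set (horizontal axis), with the line of equal change dashed. Colours mark members called with their sum (15), members called alone (9), members whose sum alone was called (18) and the remaining 438, and the 7 points at -4.69 on the horizontal axis are the Pp3c23 cluster.

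Some copies could not be told apart by their levels. Among members with a mean of at least 0.5 RPKM, 20 loci in 9 sets had RPKM within 1% of each other in all 5 libraries, 8 of the sets with equal lengths. One was a pair under Pp3c20 numbered 449 and 481 (0.303 kb each), with 11.4, 10.1 and 10.7 RPKM in β-estradiol and 48.0 and 12.9 RPKM in DMSO. A pair under Pp3c1 numbered 30550 and 30570 (1.552 kb each) had 23.0, 16.3 and 17.6 RPKM in β-estradiol and 16.3 and 6.75 RPKM in DMSO. DMSO 1 was the higher DMSO library in both pairs.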

How the data were processed

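Per the labels' protocols, mRNA was enriched by its poly-A tail and read as paired ends of 100 bp on DNBseq. RSEM, Bowtie2, HISAT2, StringTie and Cufflinks appear in the submitters' processing notes, and their roles, versions, build and annotation are not given. As data, the authors deposited RPKM values per locus, with a length in kilobases and the fraction maxMultiRatio, and a second RPKM-like table named for TMM normalization. The deposited fraction has no stated definition.

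RPKM × length was divided by the value of 1 read in each library, found from loci with a ratio of 0, which gave whole reads there (largest deviation 4.18e-05 of a read). Totals behind the RPKM were 37.3 to 56.3 M. On a locus of 1 kb, 3 reads amount to 0.0533 to 0.0804 RPKM, and such floors cover counting error only. No values of multiply mapped loci can be given as an interval, because their reads are divided.

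Loci whose mean reached 0.5 RPKM entered a two-sided limma test (limma 3.58.1, R 4.3.3) on log2(RPKM + 0.5), with trend and robust settings, without covariates and with Benjamini-Hochberg adjustment over the whole table. All log2 changes are β-estradiol minus DMSO on that scale, which understates changes of low loci. Group and set sums replaced their loci in the table as summed RPKM × length over summed length. The member that had no read in any β-estradiol library enters at its fitted value, and at its bound by 3 reads over the group the median of the members that fell was again -1.77. Alternatives were pseudocount, filter, scaling, moderation, voom, a depth term, the replicate number as a block and each library left out.

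The rule for named loci took the 2 largest increases and the 2 largest decreases among called members with at least 1 RPKM in the higher treatment and no overlap. Groups were named by reads, by number of members and by called sums. Sets and loci inside groups were chosen after the values were seen. The members, lists and tests were chosen with earlier results of these data known. No sequences are shown, because none was at hand for these IDs.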

Additional observations from a re-analysis of the deposited data

How the results depend on the processing

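The counts of calls depended on the libraries and on the terms of the model more than on scaling or pseudocount. With depth class as a term, limma called 222 members (90 higher, 132 lower), 73 group sums (27 and 46) and 65 set sums (28 and 37), against 42, 15 and 11 without it. These are 28.6, 32.4 and 23.8% of those tested, against 23.5, 24.9 and 24.3% of all rows. With the replicate number as a block the counts were 126 (43 and 83), 40 (11 and 29) and 35 (16 and 19), which is 16.2, 17.8 and 12.8% of those tested, against 10.3, 11.9 and 11.1% of all rows of the same tables. The numbers are not known to pair libraries. Over tested members the deviations from the treatment means correlated at 0.40 for β-estradiol 1 and DMSO 1, 0.39 for β-estradiol 2 and DMSO 2 and 0.17 for β-estradiol 3 and DMSO 2, values that are not independent, since the DMSO deviations mirror each other. Without a filter on low values, 5 group sums and 5 set sums passed. Leaving out each library in turn gave 1 to 158 members, 0 to 47 group sums and 0 to 56 set sums. With a ratio of at least 0.9 limma called 24 of 415 tested loci, and with a ratio above 0 it called 110 of 2028. Of all 17429 tested loci, 790 (4.53%) were called. Adjacent groups at a ratio above 0 gave 33 called sums of 684 tested. The share called over all rows with these sums was not counted, so this number has no background. Of the called members, group sums and set sums, 29, 11 and 9 also passed in voom. The difference in the members' share stayed between -2.60 and -0.176 points when each library was left out, and no alternative to the equal-value sets moved their count by over 1.5 times. Reversals concerned sums that did not pass. With each library left out in turn, the log2 changes ran from -0.54 to 0.16 (Pp3c13, 15980 to 16000), -0.69 to 0.23 (Pp3c13, 15786 to 15800), -1.87 to 0.22 (Pp3c20, 25 to 283), -0.28 to 0.58 (Pp3c10, 25360 to 25410) and -0.21 to 0.60 (Pp3c2, 36170 to 36570), the lowest without DMSO 2 and the highest without DMSO 1. Their cause was not tested. Of the 30 single loci, groups and sets named by the rule or called, the other alternatives left 272 comparisons on the same side of the threshold and 27 beyond it, all with the same sign. Depth is also a limit: 37.9% of members had fewer than 100 reads in all 5 libraries together, and a divided read is no independent count.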
